A study of Homo sapiens with 8 samples.

Results

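The genes described here encode proteins that sense double-stranded RNA (dsRNA) or carry the interferon signal, and 9 were named for this purpose: EIF2AK2, ADAR, DDX58, MAVS, IRF3, STAT2, IRF9, ISG15 and IFIT5. A row of the deposited read-count table was taken for each gene by its symbol, which gave 8 genes of the 10105 in the table. For DDX58, the gene of the sensor RIG-I, counts were not analysed here, and only its promoter was searched. The study measured total mRNA by RNA-Seq and ribosome-protected fragments (RPF) by Ribo-Seq, which sequences the short pieces of mRNA shielded by translating ribosomes. Both assays were made on HEK293T cells, a human embryonic kidney line that carries the SV40 large T antigen, in WT cells and in XRN1-null cells made with CRISPR/Cas9 and a guide RNA against an exon of XRN1. XRN1 is the main cytoplasmic exonuclease that degrades RNA from the 5′ end. Each genotype had 2 biological replicates per assay, 8 libraries in all, and cells of both genotypes were plated a day before harvest with no other treatment named. The null genotype is represented by 1 edited line, and the sources used here do not say whether it grew from a single cell, so the genotype and the line cannot be told apart. The comparison addresses whether genes that respond to dsRNA and interferon had other levels of mRNA or of footprints in cells without XRN1.

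Long dsRNA in the cytoplasm is a sign of viral infection, but can also arise from a cell's own transcripts. The helicases RIG-I and MDA5 (gene IFIH1) bind it and signal through MAVS, an adaptor on mitochondria, to kinases that activate the transcription factor IRF3 and with it the interferon genes. Secreted type I interferon then binds its receptor and activates a complex called ISGF3, which holds STAT2 and IRF9, enters the nucleus and switches on interferon-stimulated genes through a DNA motif named ISRE. PKR (gene EIF2AK2) is a kinase that binds dsRNA and phosphorylates the translation factor eIF2α, and ADAR converts adenosine to inosine in dsRNA. Of the effectors, ISG15 is a ubiquitin-like protein that is attached to other proteins, and IFIT5 is an RNA-binding protein of the IFIT family.

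The promoters of these genes are shown first, because the ISRE is the route by which ISGF3 reaches its targets. RefSeq promoter windows of 250 bases before to 50 bases after the transcription start were found for 8 of the 9 genes, IRF3 being the one without an entry. Each was searched on both strands for a minimal ISRE, in which the letters GAAA stand on either side of NN, and for a minimal GAS, TTCNNNGAA, the motif bound by STAT dimers. The ISRE letters were present in EIF2AK2, ISG15 and IFIT5, and the GAS letters in IRF9. Neither motif was matched in the windows of ADAR, MAVS, STAT2 and DDX58. A single window was searched per gene, so any other promoter of a gene was not covered. Each line gives the letters on the strand of transcription with 10 bases on either side, from RefSeq's GRCh38.p14 windows located again in GRCh37, and the matched letters are in capitals. In IFIT5 the capitals read as the reverse complement of the ISRE. Starts are those of RefSeq, and the EIF2AK2 and ISG15 sites lie inside the longer spans that GENCODE gives these genes.

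EIF2AK2, ISRE, chr2:37384110-37384139, minus strand, first base of the motif 6 bases before the start: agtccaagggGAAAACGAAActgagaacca

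ISG15, ISRE, chr1:948754-948783, plus strand, 113 bases before the start: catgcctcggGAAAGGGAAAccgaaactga

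ISG15, second ISRE, which overlaps the other one, chr1:948760-948789, plus strand, 107 bases before the start: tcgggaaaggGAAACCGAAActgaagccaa

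IFIT5, ISRE, chr10:91174270-91174299, plus strand, 45 bases before the start: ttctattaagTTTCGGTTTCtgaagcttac

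IFIT5, second ISRE, chr10:91174296-91174325, plus strand, 19 bases before the start: ttacgtttagTTTCGATTTCttaagtttca

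IFIT5, last ISRE, chr10:91174311-91174340, plus strand, 4 bases before the start: atttcttaagTTTCAGTTTCtgagcgctcg

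IRF9, GAS, chr14:24630401-24630429, plus strand, 63 bases before the start: accacgtgatTTCTGGGAAaaggccctcc

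The ISRE letters are uncommon. They were found in 996 of 27305 RefSeq promoters of the same length (3.65%), and the GAS letters in 2152 (7.88%). Among the 47 interferon-stimulated genes of the list described further on that had a window, 24 held the ISRE (51.1%). These matches describe the sequence and are no evidence of binding in these cells.

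The count table gave 33757487 to 38145433 counts per RNA-Seq library and 1921641 to 4399542 per Ribo-Seq library, the lowest being WT Ribo-Seq replicate 1. Levels are given as CPM, library-scaled counts with TMM factors of the assay. XRN1 itself had RNA-Seq counts of 1187 and 1084 in WT libraries, against 10655 and 9834 in the XRN1-null ones, and its footprints went from 34.4 and 49.8 CPM to 22.6 and 18.4 CPM. Its TE fell by 4.09 on the log2 scale (SE 0.220, edgeR FDR 1.66e-06). A small deletion need not lower the mRNA, so the counts over the whole gene are no direct check of the label. Of 10 markers of HEK293T cells, 7 were in the table, of which SIX2, NEFM and INA fell in mRNA by edgeR's test at the threshold given in the next paragraph and 4 did not pass. Of 10 leukocyte markers only CD68 was in the table, at 4.15 CPM in WT, against 4.18 CPM in XRN1-null cells. In bulk samples like these, a change of RNA per cell and a change in the share of cells that make it cannot be told apart.

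The mRNA of 4 of the 8 genes, STAT2, IRF9, ISG15 and EIF2AK2, rose in XRN1-null cells, and that of none fell. IRF9 and STAT2, both subunits of ISGF3, had the largest changes, 4.49-fold and 2.94-fold. The genes upstream of interferon, MAVS and IRF3, had overlapping groups and did not pass. Genes were called at a Benjamini-Hochberg FDR below 0.005 over the 10105 genes with edgeR's quasi-likelihood test, and at this threshold 22.9% of all genes rose in mRNA and 23.2% fell. At an unadjusted p below 0.05, 5 of the 8 were higher and 1 lower, where 34.0% of all genes were higher and 36.0% lower, and neither DESeq2 nor edgeR's likelihood ratio test called a fall. The median log2 fold change of the 8 genes was 0.35, against -0.01 over all genes. In 5 genes (EIF2AK2, ADAR, STAT2, IRF9 and ISG15) both XRN1-null libraries lay above both WT libraries, an order found in 41.0% of all genes, and in IFIT5 both lay below, an order found in 43.7%.

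**Figure D1:**
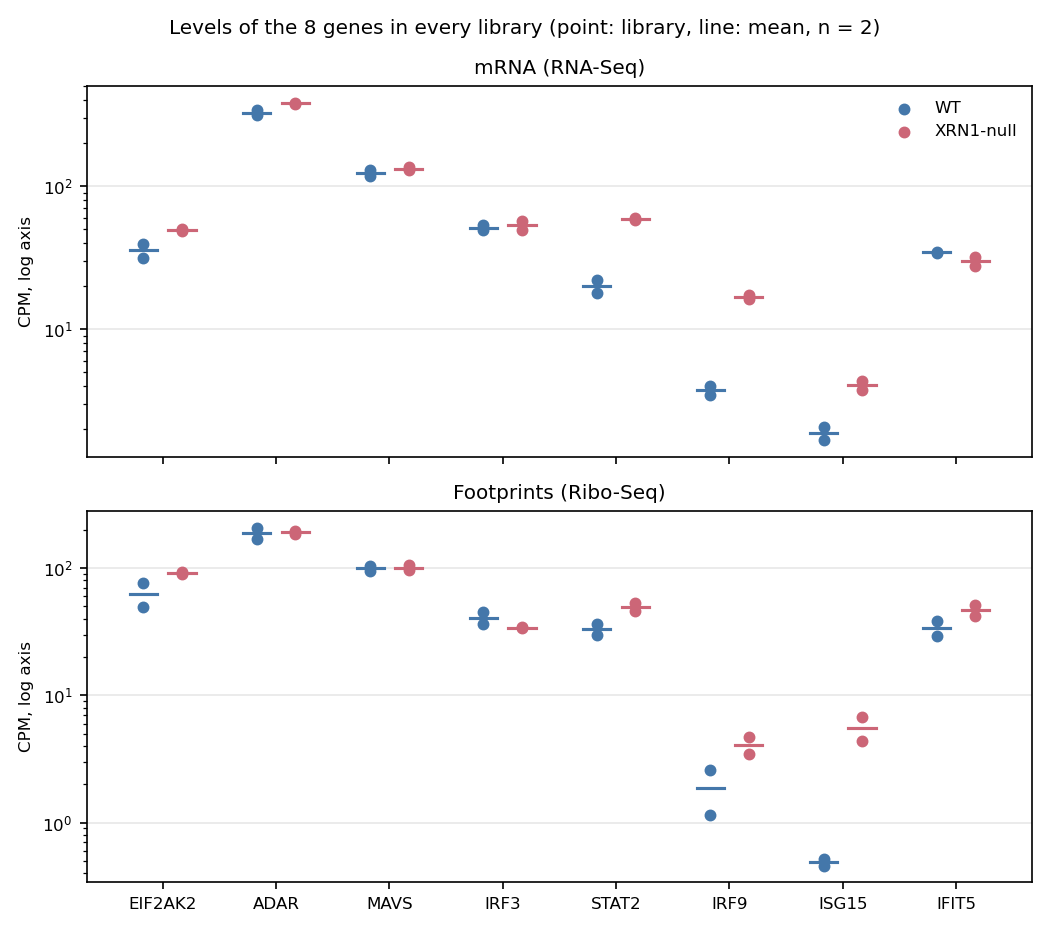
Levels of the 8 genes in every library, as CPM on a log axis, with mRNA in the upper panel and footprints in the lower one; each point is 1 library and each line the mean of 2. The XRN1-null points of STAT2 and IRF9 mRNA lie well above the WT points, while those of MAVS and IRF3 overlap them, and the ISG15 footprints in WT rest on 1 and 2 counts.

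Among the dsRNA-binding proteins, EIF2AK2 (chr2:37326353-37384665, minus strand, 17 exons in the reference transcript) had 1116 and 1302 RNA-Seq counts in WT, against 1898 and 1905 in XRN1-null libraries. This is 31.5 and 39.6 CPM against 50.2 and 48.9 CPM, with no overlap, and means of 35.6 ± 5.75 and 49.6 ± 0.871 CPM (SD, n = 2). The log2 fold change was 0.48 (SE 0.106) with an FDR of 0.00499 from edgeR's quasi-likelihood test, just under the threshold. Without XRN1-null replicate 1 the FDR was 0.0156, and without replicate 2 it was 0.0103, so the call was lost in both cases. Exons of EIF2AK2 overlap those of GPATCH11 on the other strand, whose mRNA did not pass (log2 fold change -0.07, FDR 0.413 by edgeR); whether the counting used strand is not given in the sources used here.

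ADAR (chr1:154554171-154600489, minus strand, 15 exons) was the most abundant of the 8 mRNAs, with 11148 and 11194 counts in WT, against 14492 and 14639 in XRN1-null libraries. These are 315 and 341 CPM against 383 and 376 CPM, again with no overlap. The log2 fold change of 0.21 (SE 0.0668) did not pass (edgeR FDR 0.0240). With WT replicate 1 or WT replicate 2 left out it passed, at FDR values of 0.000311 and 6.42e-07, with log2 fold changes of 0.18 and 0.27.

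MAVS (chr20:3827446-3856770, plus strand) and IRF3 (chr19:50162826-50169132, minus strand), which act between the sensors and the interferon genes, had overlapping groups. MAVS mRNA was at 119 and 130 CPM in WT, against 136 and 130 CPM in XRN1-null libraries, a log2 fold change of 0.10 (SE 0.0711, FDR 0.248). IRF3 mRNA was at 49.2 and 53.5 CPM in WT, against 49.7 and 57.4 CPM in XRN1-null libraries, a log2 fold change of 0.06 (SE 0.0875, FDR 0.556). Exons of IRF3 overlap those of BCL2L12 on the other strand, and BCL2L12 mRNA fell (log2 fold change -0.35, edgeR FDR 0.00185).

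STAT2 and IRF9 stood apart from these. STAT2 (chr12:56735381-56753987, minus strand, 24 exons) had 638 and 725 RNA-Seq counts in WT, against 2263 and 2248 in XRN1-null libraries, that is 18.0 and 22.1 CPM against 59.8 and 57.7 CPM. The WT libraries lay far below both XRN1-null libraries. The log2 fold change was 1.55 (SE 0.0993, edgeR FDR 1.83e-05) and stayed between 1.43 and 1.70 with any library left out. No exon of another annotated gene overlaps STAT2.

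IRF9 (chr14:24630443-24637252, plus strand, 9 exons), the DNA-binding subunit of the complex, had 143 and 113 counts in WT, against 616 and 677 in XRN1-null libraries. Its levels were 4.04 and 3.44 CPM in WT, against 16.3 and 17.4 CPM in XRN1-null cells, a log2 fold change of 2.17 (SE 0.121, edgeR FDR 1.19e-05), and between 2.06 and 2.31 with any library left out. This change stood at the 99.5th percentile of all genes, and that of STAT2 at the 98.4th. GENCODE places a readthrough gene on the same strand that joins IRF9 to its upstream neighbour RNF31, and a lncRNA on the other strand. RNF31 mRNA rose too, from 1265 and 1148 counts to 2312 and 2397 (log2 fold change 0.80, SE 0.0623, edgeR FDR 4.01e-05), so reads of a joint transcript cannot be told apart from those of IRF9 in this table.

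Of the effectors, the mRNA of ISG15 rose and that of IFIT5 did not pass. ISG15 (chr1:936518-949920, plus strand) was the least abundant mRNA by counts, with 73 and 55 in WT and 142 and 169 in XRN1-null libraries. Its 2.06 and 1.67 CPM in WT lay below the 3.75 and 4.34 CPM in XRN1-null cells, with a log2 fold change of 1.11 (SE 0.189, edgeR FDR 0.00141). Without XRN1-null replicate 2 the FDR was 0.00878 and the call was lost. IFIT5 (chr10:91174325-91181362, plus strand), the gene with the most ISRE matches, had 34.2 and 34.8 CPM in WT, against 27.6 and 32.0 CPM in XRN1-null libraries, and did not pass (log2 fold change -0.21, SE 0.0885, edgeR FDR 0.0686).

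Per kb of the gene width given in the table, the order of the mRNA levels changed with the genotype. In WT cells it was ADAR at 46.2 CPM per kb, IRF3 at 25.5, MAVS at 10.5, IFIT5 at 8.55, EIF2AK2 at 8.19, STAT2 at 4.41, ISG15 at 2.80 and IRF9 at 2.23 CPM per kb. IFIT5 and EIF2AK2 overlapped in this order, and the replicates of all other neighbours were separate. IRF9 in WT stood at the 3.26th percentile of all genes of the table, ISG15 at 5.56 and STAT2 at 12.9. In XRN1-null cells the order was ADAR at 53.5 CPM per kb, IRF3 at 26.6, STAT2 at 12.9, EIF2AK2 at 11.4, MAVS at 11.3, IRF9 at 10.03, IFIT5 at 7.39 and ISG15 at 6.08 CPM per kb, with an overlap of EIF2AK2 and MAVS. STAT2 thus moved from the sixth to the third place and IRF9 from the last to the sixth.

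Footprints of none of the 8 genes passed the threshold in either direction with edgeR's quasi-likelihood test, where 0.633% of all genes rose and 1.14% fell. At an unadjusted p below 0.05, 5 were higher and 0 lower, where 16.2% of all genes were higher and 16.8% lower. DESeq2 called 0, and edgeR's likelihood ratio test called 1, ISG15. Both XRN1-null libraries lay above both WT libraries in EIF2AK2, STAT2, IRF9, ISG15 and IFIT5, an order found in 32.1% of all genes, and below them in IRF3, an order found in 32.3%. The median log2 fold change of RPF was 0.46, against -0.00 over all genes.

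ISG15 had the largest difference in footprints, and the smallest counts: 1 and 2 in WT and 27 and 14 in XRN1-null libraries, or 0.521 and 0.459 CPM against 6.70 and 4.37 CPM. The ratio of the pooled counts, 41 against 3 after scaling, was 11.9 with a 95% exact interval of 3.78 to 59.9 that covers counting error only. Its edgeR FDR was 0.00637. It passed with WT Ribo-Seq replicate 1 left out (FDR 4.85e-05), with WT replicate 2 left out (FDR 0.00305) and with XRN1-null replicate 2 left out (FDR 0.00135).

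STAT2 had 57 and 159 footprint counts in WT, against 186 and 170 in XRN1-null libraries, or 29.7 and 36.5 CPM against 46.2 and 53.1 CPM, a log2 fold change of 0.54 (SE 0.164, edgeR FDR 0.0444). IRF9 had 5 counts in each WT library and 19 and 11 in the XRN1-null libraries, a log2 fold change of 1.35 (SE 0.542, FDR 0.108), which was 1.83 without WT Ribo-Seq replicate 1 and 0.67 without WT replicate 2, so its precision was low. EIF2AK2 footprints were at 49.5 and 76.0 CPM in WT, against 93.4 and 89.3 CPM in XRN1-null libraries, a log2 fold change of 0.49 (SE 0.179, FDR 0.0797), close to that of its mRNA. Without WT Ribo-Seq replicate 2, EIF2AK2 and STAT2 passed as well, with log2 fold changes of 0.90 (FDR 1.11e-06) and 0.74 (FDR 0.00186). Without WT Ribo-Seq replicate 1 neither passed, and the log2 fold changes were 0.27 and 0.44. The groups of these genes did not overlap, but WT replicates differed from each other by more than XRN1-null replicates in EIF2AK2.

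IFIT5 had footprints at 29.2 and 38.4 CPM in WT, against 42.2 and 51.5 CPM in XRN1-null libraries (log2 fold change 0.42, SE 0.177, edgeR FDR 0.121), above WT although its mRNA lay below. IRF3 footprints were at 36.5 and 44.8 CPM in WT, against 33.5 and 34.3 CPM in XRN1-null libraries (log2 fold change -0.29, SE 0.161, FDR 0.227). For ADAR the values were 168 and 206 against 196 and 186 CPM, and for MAVS 104.7 and 95.6 against 95.8 and 105.2 CPM, with log2 fold changes of 0.03 (SE 0.147) and 0.01 (SE 0.140). The groups of ADAR and MAVS overlapped.

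Translation efficiency (TE), the footprints relative to the mRNA, was tested over the 8 libraries as an interaction between assay and genotype. None of the 8 genes passed, where 0.0495% of all genes rose and 1.78% fell. At an unadjusted p below 0.05, 2 were higher and 1 lower, where 8.76% of all genes were higher and 14.6% lower. DESeq2 and edgeR's likelihood ratio test each called 1 fall, that of STAT2, and no rise. STAT2 had a ratio of mean RPF to mean mRNA of 1.65 in WT and 0.844 in XRN1-null cells, a log2 change of -1.02 (SE 0.195, edgeR FDR 0.00827). Its FDR was 0.00258 with WT RNA-Seq replicate 2 left out and 0.00134 with DESeq2. Its mRNA was thus 2.94-fold higher, and its footprints 1.46-fold.

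For IRF9 the ratio was 0.502 in WT and 0.242 in XRN1-null cells (log2 change -0.80, SE 0.569, FDR 0.437), and the log2 change was -0.31 without WT Ribo-Seq replicate 1 and -1.48 without WT replicate 2. ISG15 had the opposite sign, with a log2 change of 2.44 (SE 0.730, edgeR FDR 0.0640) that rests on the 3 WT footprint counts, and so did IFIT5, with 0.62 (SE 0.195, FDR 0.0788). The log2 change of TE of EIF2AK2 was -0.01 (SE 0.212), and between -0.21 and 0.42 with 1 library left out. ADAR, MAVS and IRF3 had log2 changes of -0.19 (SE 0.155), -0.09 (SE 0.144) and -0.36 (SE 0.181).

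**Figure D2:**
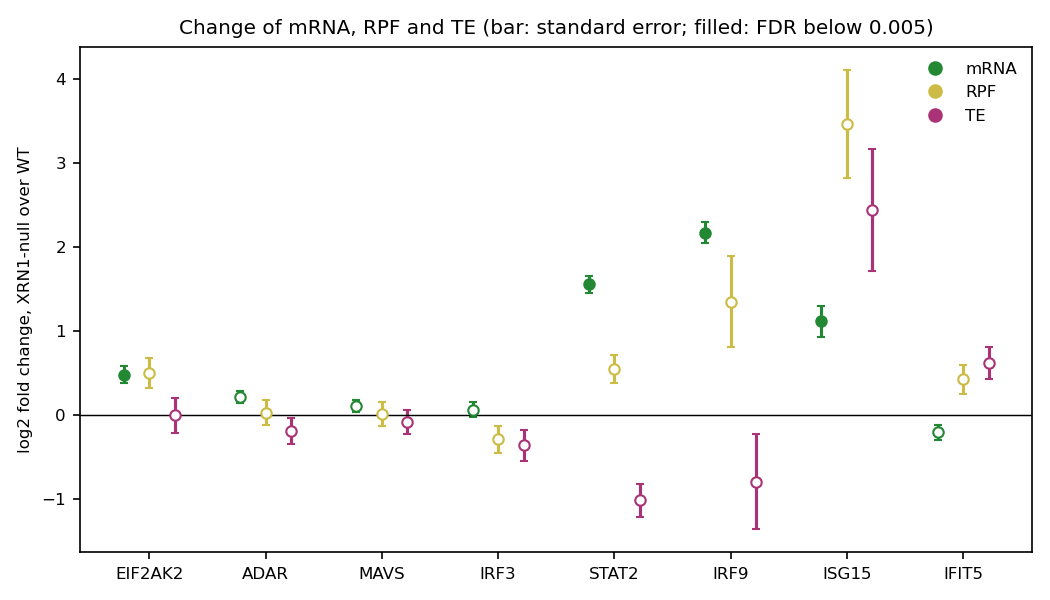
Log2 fold change of XRN1-null over WT cells for mRNA, RPF and TE of each gene, from edgeR; bars are standard errors and filled points have an FDR below 0.005. The only filled points are the mRNA of EIF2AK2, STAT2, IRF9 and ISG15; RPF and TE of ISG15 rest on 3 WT footprint counts, and the TE points of STAT2 and IRF9 lie below 0.

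The 128 other genes of 5 lists around this pathway were examined in the same fits. In mRNA 38 rose (29.7%) and 18 fell (14.1%), with a median log2 fold change of 0.13, against 22.9% and 23.2% of all genes. The table was made with a limit of 2 FPKM, and IFIH1 and PSMB9 were over it in XRN1-null libraries alone, in both assays, so their higher values in these cells were needed for a place in the table. Of the other 126 genes 36 rose (28.6%), against 22.5% of the 10044 genes of the table left when such genes are taken out. The counts of the rises moved to 58 without WT RNA-Seq replicate 2, to 24 without XRN1-null replicate 1 and to 23 without XRN1-null replicate 2, and those of the falls to 30, 7 and 6. IFIH1 and PSMB9 are still counted in the numbers of RPF and TE that follow. In RPF 2 rose and 2 fell (1.56% each), against 0.633% and 1.14% of all genes. The rises were those of IFIH1 and IFI30, so 1 of them came from a gene that needed its XRN1-null values. In TE none rose and 1 fell by edgeR. For RPF the unadjusted p was below 0.05 in 33 higher and 13 lower genes, against 16.2% and 16.8% of all genes. The rises in RPF numbered 15 without WT Ribo-Seq replicate 1 and 22 without WT replicate 2, and the falls 6 and 7, while 1 fall was left without either XRN1-null Ribo-Seq library. For TE the unadjusted p was below 0.05 in 9 higher and 15 lower genes of the 128, against 8.76% and 14.6% of all genes. DESeq2 and the likelihood ratio test also called no rise. Counts from other tests or with a library left out are given, here and for the lists below, without those of all genes. Moves of these counts cannot be told apart from moves over the whole table.

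Among 19 other dsRNA sensors and binding proteins, 7 rose in mRNA (36.8%) and none fell, against 22.9% and 23.2% of all genes. The median log2 fold change was 0.25. Leaving out IFIH1, 6 of 18 rose (33.3%). At an unadjusted p below 0.05 the numbers were 13 and 2, against 34.0% and 36.0% of all genes. DESeq2 called 9 rises and 1 fall and edgeR's likelihood ratio test 8 and 2. There were 13 rises and 3 falls without WT RNA-Seq replicate 1, and 10 and 2 without WT replicate 2. DGCR8, the partner of Drosha in microRNA processing, went from 2427 and 2076 counts to 11248 and 11766, a log2 fold change of 2.19 (SE 0.0699, edgeR FDR 2.51e-06). DHX9, a helicase that unwinds RNA duplexes, went from 6630 and 9004 counts to 34697 and 36191 (log2 fold change 2.00, SE 0.159). IFIH1 had 84 and 80 counts in WT, against 319 and 332 in XRN1-null libraries (log2 fold change 1.82, SE 0.133). CDKN2AIP rose by a log2 fold change of 1.52.

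In footprints IFIH1 was called in this group, from 4 and 15 counts to 73 and 54, with a log2 fold change of 2.53 (SE 0.302, edgeR FDR 0.00114). This gene reached the table through its XRN1-null libraries, so the difference is no independent support. The list had 3 rises in RPF without WT Ribo-Seq replicate 1, 7 without WT replicate 2, 3 with the likelihood ratio test and 1 with DESeq2. With a minimum of 10 counts, 17 of the 19 genes were tested and no rise was called. In TE DGCR8 was called, with a fall by 1.36 on the log2 scale (SE 0.188, edgeR FDR 0.00129). Its footprints went from 20.0 to 34.3 CPM on average, against 65.9 to 299.8 CPM in mRNA. The TE call of DGCR8 was lost without either XRN1-null RNA-Seq library (FDR 0.00538 without replicate 1 and 0.00512 without replicate 2) and without either XRN1-null Ribo-Seq library (FDR 0.0207 and 0.0142). The log2 change of TE was -1.29 in DHX9 (edgeR FDR 0.0336) and -0.87 in CDKN2AIP (edgeR FDR 0.0156). Both passed with the likelihood ratio test (FDR 0.00385 and 0.000292). With 1 library left out, the change of DHX9 lay between -1.64 and -0.75, and that of CDKN2AIP between -1.08 and -0.72.

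Of 22 other adaptors and factors of interferon induction, 8 rose and 2 fell in mRNA (36.4% and 9.09%), against 22.9% and 23.2% of all genes. IKBKB, a kinase of NF-κB activation, had a mean of 35.9 CPM in WT, against 73.4 CPM in XRN1-null cells (log2 fold change 1.03, SE 0.0657). TRAF6, a ubiquitin ligase upstream of it, rose by 0.92 on the log2 scale, and the transcription factors IRF2 and IRF1 by 0.81 and 0.71. TMEM173, the gene of the DNA-pathway adaptor STING, fell by 0.73 on the log2 scale, from 298 and 240 counts to 197 and 167, and NLRX1, a mitochondrial regulator of MAVS, fell by 0.53. The calls of IRF2, IRF1, TMEM173 and NLRX1 were lost without XRN1-null RNA-Seq replicate 2 (FDR 0.0138, 0.0162, 0.0233 and 0.00649), that of IRF1 also without replicate 1 (FDR 0.00645), and that of TMEM173 with library totals in place of TMM (FDR 0.00528). The list's counts were 12 rises and 5 falls without WT RNA-Seq replicate 2, 5 and 2 without XRN1-null replicate 1, and 2 and 0 without XRN1-null replicate 2.

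Of 21 other genes of interferon receptors and JAK-STAT signalling, 6 rose and 4 fell in mRNA, with a median log2 fold change of -0.11. KPNA1, an importin that carries proteins into the nucleus, rose by 0.80 on the log2 scale (SE 0.107). The 6 rises are not all named, because IRF9 and STAT2 took up places among the largest rises of this list. The 4 falls were those of the receptor chains IFNGR2 (log2 fold change -0.63, SE 0.0746), IFNGR1 (-0.50, SE 0.0827) and IFNAR2 (-0.37, SE 0.0729) and of the coactivator CREBBP (-0.38, SE 0.0751). The list had 9 rises and 7 falls without WT RNA-Seq replicate 2, and 4 and 1 without either XRN1-null library. Of the falls, only the call of IFNGR2 held without XRN1-null RNA-Seq replicate 1 and without replicate 2. Those of IFNGR1, CREBBP and IFNAR2 were lost, with FDR values of 0.00716, 0.0169 and 0.0373 without replicate 1 and of 0.00685, 0.0600 and 0.0181 without replicate 2, and CREBBP and IFNAR2 also missed the threshold with library totals (FDR 0.00774 and 0.00797).

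The list of interferon-stimulated genes named 102 genes, of which 57 were measured, 6 of the 8 genes described first among them. The rest had no row in the count table under the symbol used, and shares are over measured genes. Of 51 other interferon-stimulated genes, 18 rose (35.3%) and 7 fell (13.7%) in mRNA, against 22.9% and 23.2% of all genes. The median log2 fold change was 0.23. Leaving out IFIH1 and PSMB9, 16 of 49 rose (32.7%). Without XRN1-null RNA-Seq replicate 1 there were 11 rises and 4 falls, and without replicate 2 there were 12 and 5. IFI35, a protein induced by interferon, had 131 and 134 counts in WT, against 411 and 472 in XRN1-null libraries (log2 fold change 1.56, SE 0.128), with footprints close to the threshold (log2 fold change 1.71, edgeR FDR 0.00595). IFI30, a lysosomal thiol reductase of antigen processing, rose by 1.16 in mRNA and by 0.95 in RPF on the log2 scale. BST2, the antiviral membrane protein tetherin, went the other way, from 569 and 599 mRNA counts to 115 and 123, a log2 fold change of -2.47 (SE 0.124, edgeR FDR 7.94e-06). Its footprints fell by 1.71 (SE 0.238, FDR 0.00232).

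PSMB10, a subunit of the immunoproteasome, fell by 1.13 in mRNA on the log2 scale, the membrane protein LY6E by 0.80 and N4BP1, an RNA-cleaving protein, by 0.61. LY6E also fell in RPF, by 0.95. The RPF calls of IFI30 and LY6E were lost without either XRN1-null Ribo-Seq library, with FDR values of 0.0111 and 0.00658 for IFI30 and of 0.0192 and 0.0165 for LY6E. PSMB9, another subunit of the immunoproteasome, had 43 and 24 counts in WT, against 85 and 94 in XRN1-null RNA-Seq libraries, and 2 and 1 against 21 and 18 in Ribo-Seq, a ratio of 11.3 (95% exact interval 3.59 to 57.05, for counting error only). It too reached the table through its XRN1-null libraries. IFNB1, IFIT1, IFIT2, IFIT3, MX1, OAS1, RSAD2, CXCL10 and IRF7 are used widely as signs of an interferon response. They have no row in the count table, so their levels are not known here for either genotype.

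PKR's target and its partners formed the last list. Of 21 genes besides EIF2AK2, 5 rose and 5 fell in mRNA (23.8% each), against 22.9% and 23.2% of all genes. These counts changed with the library left out. EIF2S1, the gene of eIF2α, had 2835 and 3385 counts in WT, against 4136 and 4362 in XRN1-null libraries and did not pass (log2 fold change 0.27, SE 0.112, edgeR FDR 0.0614); it was named after its values were seen. EIF2B2, a subunit of the exchange factor of eIF2, rose by 0.81 on the log2 scale (SE 0.0679), DDIT3, the stress-induced factor CHOP, by 0.57 (SE 0.0955), and PPP1R15A, which directs a phosphatase to eIF2α, by 0.47 (SE 0.0723). Without XRN1-null RNA-Seq replicate 1 the call of DDIT3 was lost (FDR 0.0140), and without replicate 2 that of PPP1R15A (FDR 0.0126). Falls had log2 fold changes of -0.42 in NCK1, -0.40 in EIF2S3, -0.34 in PPP1CB and -0.32 in PPP1CC. The calls of these 4 were lost without either XRN1-null RNA-Seq library (FDR 0.0173 to 0.0629 without replicate 1 and 0.0237 to 0.0865 without replicate 2), those of PPP1CB and PPP1CC also with library totals (FDR 0.0132 and 0.00765) and that of PPP1CB with RLE factors (FDR 0.00722).

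Some of the named list genes share exons with other annotated genes, and their reads could not be separated in the table. IFNAR2, PSMB10, IFI30, DDIT3, NCK1 and PPP1CB overlap another protein-coding gene on the same strand. DGCR8, DHX9, IRF1, KPNA1, IFNGR2, LY6E, EIF2B2 and PSMB9 overlap genes on the other strand. IFIH1, CDKN2AIP, IKBKB, TRAF6, IRF2, NLRX1, IFNGR1, CREBBP, IFI35, BST2, N4BP1, PPP1R15A, EIF2S3 and PPP1CC had no exon overlap in GENCODE.

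**Figure D3:**
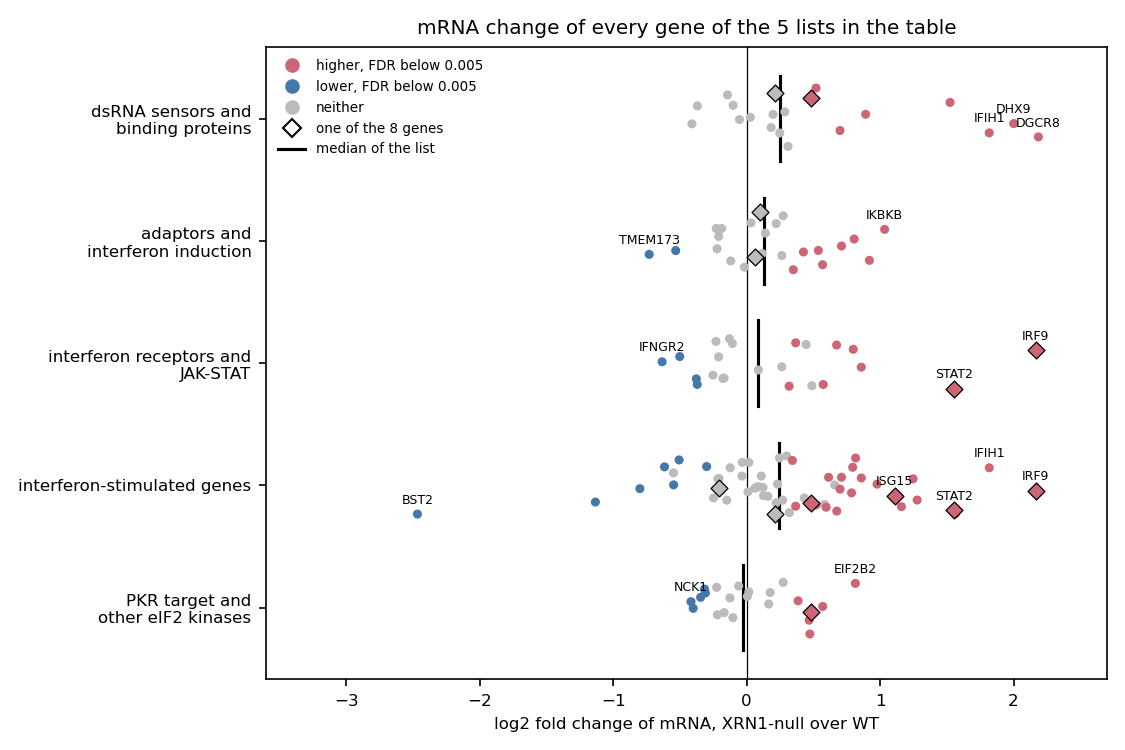
Log2 fold change of mRNA of every gene of the 5 lists in the table; diamonds are the 8 genes described first, colours give calls by edgeR at an FDR below 0.005, the vertical bar is the median of each list with those genes included, and the vertical position within a list has no meaning. DGCR8, DHX9, IRF9 and IFIH1 lie farthest to the right and BST2 farthest to the left.

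**Figure D4:**
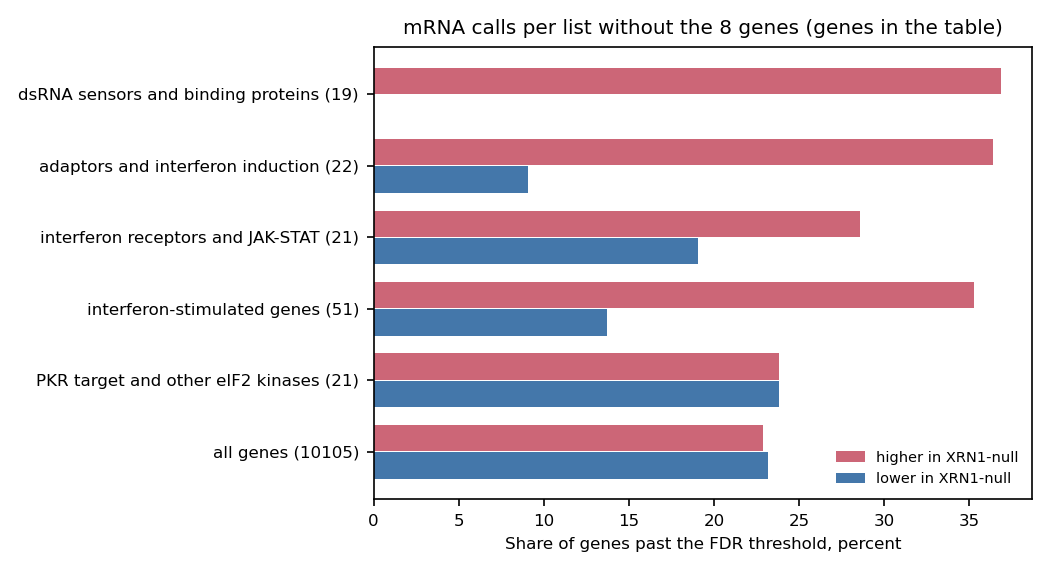
Share of genes that rose and that fell in mRNA in each list without the 8 genes, in percent, beside the share of all 10105 genes; numbers in parentheses are genes in the table, with IFIH1 and PSMB9 counted. Rises range from 23.8% to 36.8% and falls from 0% to 23.8% over the lists, against 22.9% and 23.2% of all genes.

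The promoter motif and the calls of mRNA were also set side by side, with motifs chosen after the values of the 8 genes had been seen. Of the 24 interferon-stimulated genes with ISRE letters, 5 rose in mRNA (20.8%), against 47.8% of those without, and 2 fell (8.33%), against 13.0%. The 24 include EIF2AK2, ISG15 and IFIT5, described above, of which EIF2AK2 and ISG15 rose. They also include IFIH1, a rise that reached the table through its XRN1-null libraries. Over all 8378 genes of the table with a promoter window, 213 held the letters, and 23.9% of them rose, against 22.4% of the others, while 18.8% fell, against 23.4%. STAT2 and IRF9, the genes that changed most among the 8, had no ISRE letters in their windows, and IFIT5, which had 3 matches, did not pass.

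The gene most like each of the 8 over the 8 libraries, by the Euclidean distance of log2(CPM + 0.5) from the WT mean of the assay, was TARS for EIF2AK2 (distance 0.145), CDC40 for ADAR (0.0908), SMAD2 for MAVS (0.0800), TMEM201 for IRF3 (0.175), ARFGAP2 for STAT2 (0.302) and MARVELD2 for IFIT5 (0.217). IRF9 was nearest to DGCR8 (0.646) and ISG15 to PSMB9 (0.875). The largest distances belonged to the genes with the lowest footprint counts.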

How the data were processed

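RNA-Seq and Ribo-Seq of WT and XRN1-null HEK293T cells gave 8 libraries, grouped by their labels. Per the labels and the study's methods, the authors removed rRNA reads with Bowtie2, mapped on hg19 with TopHat2, kept footprints of the most periodic lengths, counted reads per gene with QuasR and deposited the raw counts of genes above an FPKM of 2. Tool versions and strand settings are not given in the sources used here. Another 2 deposited tables hold the authors' own comparisons (log2 fold changes, p-values, FDR and TE) and were not used.

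Counts were fitted with edgeR 4.0.16 in R 4.3.3, with TMM factors within each assay, genotype as the only term, and TE as the interaction of assay and genotype. The FDR threshold of 0.005 is that of the study and was applied over all 10105 genes; the study does not name its edgeR test. Each standard error (SE) was taken from the log2 fold change and its F statistic, whose root is the ratio of the change to its SE. P-values measure the spread between 2 cultures of 1 line per genotype. Replicates differed by more than counting noise. With 1 to 3 counts a ratio with an exact 95% interval is given. Positions came from GENCODE 44 on GRCh37.

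The genes and the 5 lists were chosen with earlier results of these data known. Besides the 8 genes, the text names for each list up to 4 largest rises and up to 4 largest falls among genes called in mRNA and with both XRN1-null libraries on the same side of both WT libraries, every list gene called in RPF or TE, and 1 nearest gene each. The 8 genes were ranked within their lists, so IRF9 and STAT2 took up places among the largest rises. Genes with antisense or joined neighbours, PSMB9 and EIF2S1 were added. The result for 1 gene that the rule names is not reported here. Alternatives were RLE factors, library totals, DESeq2 1.42.0, the likelihood ratio test, a minimum of 10 counts, other thresholds, replicate blocks and leaving out each library.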

Additional observations from a re-analysis of the deposited data

How the results depend on the processing

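No direction of a called change was reversed, and of 324 alternative values for the 8 genes 301 kept their side of the threshold. Leaving out 1 library at a time gave 2 to 5 of the 8 genes with higher mRNA (4 with all libraries), 0 to 3 with higher RPF and 0 to 1 with lower TE. For the other pathway genes it gave 23 to 58 with higher and 6 to 30 with lower mRNA, 2 to 22 with higher and 1 to 7 with lower RPF, and 0 to 2 with lower TE. A group with 1 library left is assumed to vary like the other. An FDR below 0.05 gave 2 of the 8 genes with higher RPF and 1 with lower TE, and 30 pathway genes with lower mRNA, 16 with higher RPF, 5 with lower RPF and 7 with lower TE. A log2 fold change of at least 1 left 9 and 2 pathway genes in mRNA and 1 and 1 in RPF. Library totals gave 1 of the 8 genes with higher RPF and 1 with lower TE, and 11 pathway genes with lower mRNA, 5 with higher RPF and 2 with lower TE; RLE factors gave 2 with lower TE. DESeq2 gave 1 of the 8 genes with lower TE, and 4 pathway genes with higher RPF and 2 with lower TE. The likelihood ratio test gave 1 of the 8 genes with higher RPF and 1 with lower TE, and 14, 5 and 7 pathway genes with higher RPF, lower RPF and lower TE. A minimum of 10 counts left 1 pathway gene with higher RPF. The cause of these moves was not tested, apart from thresholds and filters. Counts of all genes at the same settings are not given beside them.

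The labels give both genotypes the same replicate numbers but do not say that they mark a shared day. Deviations of same-numbered libraries had correlations of 0.190 in RNA-Seq and 0.0803 in Ribo-Seq over genes, with 2 pairs each, so pairing was not established. Same-numbered RNA-Seq and Ribo-Seq libraries correlated at 0.355 in WT and 0.0326 in XRN1-null cells. With a replicate block, 1 of the 8 genes (ISG15) had higher RPF, and 17, 4 and 2 pathway genes had higher RPF, lower RPF and lower TE. The dsRNA-binding list then had 6 rises in RPF and 2 falls in TE. With the culture as a replicate block for TE, 1 of the 8 genes (STAT2) and 6 pathway genes, 3 of them of that list, had lower TE. The blocks changed no other call of the 8 genes. Scalings moved the median of all genes by less than 0.1 on the log2 scale. Ribo-Seq depth limits ISG15 and IRF9 most.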
